A study of Drosophila melanogaster with 4 samples.

Results

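The X chromosome of the Drosophila melanogaster cell line Kc167 held 2500 of the 14384 called peaks of Suppressor of Hairless, Su(H), or 17.4% of the list. The peaks were chosen by chromosome name alone, so that X was taken and the separate heterochromatic scaffold XHet, with 2 peaks, was not. Of the 13913 peaks on the 6 assembled arms (X, 2L, 2R, 3L, 3R and 4), X held 18.0%, and it made up 18.6% of their summed length. Chromatin immunoprecipitation and sequencing (ChIP-seq) was done on 3 libraries with a rabbit polyclonal antibody raised against residues 259 to 594 of Su(H), beside 1 library of input DNA. All 4 libraries came from Kc167, an embryo-derived line with the genotype se/e that the labels call female and late embryonic. The cells were fixed in 1.8% formaldehyde for 15 minutes, with no treatment in the labels. A cell line stands for a single culture and not for a tissue of the fly, and the labels do not say whether the replicates came from separate cultures.

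Su(H) is the DNA-binding factor through which the Notch receptor reaches its target genes. Without a Notch signal it is known to sit at enhancers with the co-repressor Hairless. When Notch is cleaved, its intracellular domain joins Su(H) and the co-activator Mastermind, and the same sites then drive transcription. The X carries the Notch gene itself and is the chromosome that male flies hold in a single copy and compensate by the MSL complex, which female cells such as Kc167 do not assemble. The genes at the positions below were not analysed here, since no annotation of the genome release of the list was used. Positions are in FlyBase release 5, in which X is numbered from its telomere towards the centromere.

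Each peak has a start, an end and 1 score from the peak caller, with no value per library, and the depth of the libraries is unknown. The score behaves as −log10 of a Poisson p-value against a background of 195.9 overlapping fragments, so its fold over background can be worked out. Scores that fall exactly on the values of this background are called on the ladder. A peak off it is taken to have a higher background of its own. The fold given for such a peak is an upper bound of the fold over that background. On X, 601 peaks (24.0%, exact 95% interval 22.4% to 25.8%) lay off the ladder, against 31.7% over the 6 arms. Arms 2L, 2R, 3L and 3R ran from 23.1% on 3R to 54.0% on 2L, and by this share X was inside their range. Per Mb, X held 26.9 peaks off the ladder (24.8 to 29.1), below the 29.9 on 3R to 53.3 on 2L. With the fit made on X peaks alone the background was the same. The list allows no replicate check, and no test of X against the autosomes was made because it gives 1 value per arm. Intervals below cover counting error over peaks only, and they are too narrow because peaks lie in groups. Differences between X and other arms are therefore given as the place of X in the range of the 4 long autosomal arms.

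By density, width and spacing, X lay inside the range of the long autosomal arms. X held 112 peaks per Mb (exact 95% interval 108 to 116). The long autosomal arms ran from 89.0 on 3L to 154 on 2R, which put X in the middle of the 5. The ratio of X to the 4 arms together was 0.954 (0.913 to 0.997) and came to 1.00 (0.940 to 1.07) once peaks under 1 kb apart were joined. Without the outer 1 Mb at both ends of each arm it was 1.02 (0.977 to 1.07), so the sign of this small difference was not stable. Peaks covered 2001 kb of X, or 8.95% of its length, against 7.05% on 3L to 11.9% on 2R. The short arm 4 had 75.9 peaks per Mb and 4.84% of its length covered.

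The median X peak was 454.5 bp wide (exact 95% interval 438 to 471), with 25% of peaks at or under 298 bp and 25% at or above 842 bp. Medians on the long autosomal arms were 436 bp on 3R to 463 bp on 3L. No peak in the list's arms was narrower than 201 bp, and 34 X peaks had exactly that width. When all peaks of the arms were split into 10 bands by score, the median width on X lay inside the autosomal range in 7 bands. It lay above the range in the 2 lowest bands, at 264 bp against 251 to 257 bp in the first and 297 bp against 270.5 to 293 bp in the second. In the seventh band, with scores of 18.46 to 22.85, it lay below the range, at 507 bp against 510.5 to 603.5 bp.

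Neighbouring X peaks were a median of 1748 bp apart from midpoint to midpoint (exact 95% interval 1641 to 1835.5), against 1569.5 bp on 2L to 1820.5 bp on 3L. From the end of a peak to the start of the next, the median was 795 bp and the smallest value was 50 bp, as on each long autosomal arm. Gaps under 1 kb made up 54.4% of the 2499 gaps on X, inside the autosomal range of 52.9% to 59.1%. No other peak lay within 10 kb of 109 X peaks (4.36%), close to the 4.46% over the 6 arms. Of these 109, 32 were strong by the definition below, where 131 of 498 such peaks on the 4 long autosomal arms were. The plot of the 5 long arms shows these values together.

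**Figure D1:**
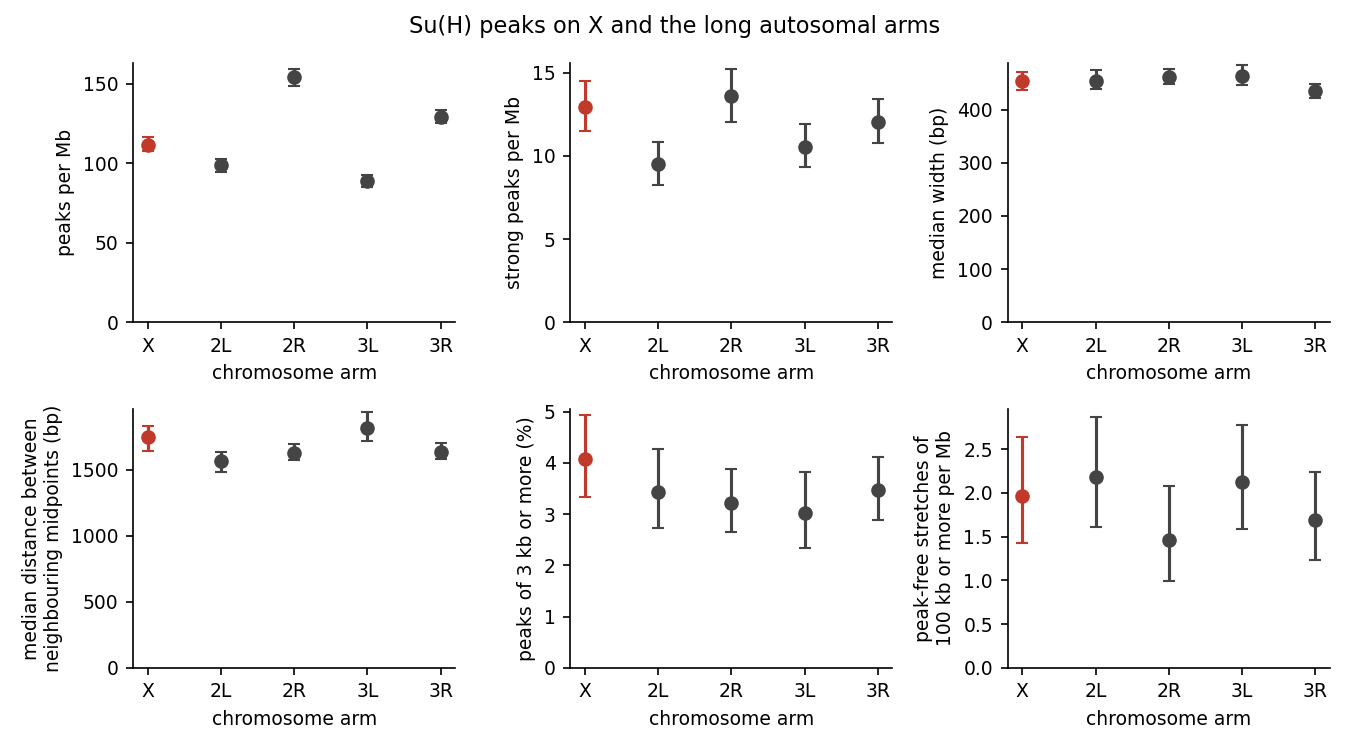
Density, strong peaks, median width, median distance between midpoints, share of peaks of 3 kb or more and peak-free stretches of 100 kb or more on X (red) and the 4 long autosomal arms (grey). Points are the values over 1 list and bars are exact 95% intervals over peaks; X lies between the lowest and highest autosomal arm in every panel but the share of peaks of 3 kb or more (4.08%).

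X peaks were mostly low, with a small high set. Their median score was 15.76, the same as over the 4 long autosomal arms together, and their median fold did not exceed 1.63. Peaks that could reach 2-fold numbered 545, or 21.8%, against 19.9% over the 6 arms and 17.4% to 24.1% on the long autosomal ones. Those that could reach 4-fold numbered 162, or 6.48%, against 5.68% over the 6 arms and 4.85% to 6.50% on the long autosomal ones. The 25% of X peaks with the highest scores began at 29.48, a value that ran from 23.36 on 3R to 32.575 on 3L.

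Strong peaks are those in the highest 10% of scores over the arms (102.99 or above), and weak peaks those in the lowest 50% (15.76 or below). X held 289 strong peaks, or 11.6% of its peaks (exact 95% interval 10.3% to 12.9%), where 10.0% of all peaks on the arms were strong. Values on the long autosomal arms lay between 8.81% (2R) and 11.9% (3L), and X was again inside their range. Per Mb there were 12.9 strong peaks on X (11.5 to 14.5), second to the 13.6 of 2R. The ratio of X to the 4 arms together was 1.14 for strong peaks, with an interval (0.993 to 1.29) that takes in 1. Weak peaks numbered 1267 on X, or 50.7% against 50.2% over the arms.

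Strong peaks took up a larger part of the covered sequence on X than on the other arms. They made up 38.2% of it, against 31.6% on 2R to 35.8% on 3L, and they were a median of 2209 bp wide (1937 to 2368.5 bp on the long autosomal arms). The median distance between successive strong midpoints was 33563 bp on X, just under the 34098 bp of 2R and below the 55964 bp of 2L. Of the 289 strong peaks, 186 (64.4%) had another strong peak within 20 kb, where 57.1% of all strong peaks on the arms did. The share was 43.6% on 2L, 51.4% on 3L, 59.6% on 2R and 61.9% on 3R. None of these differences between arms was tested. The strong peaks of X include the 2 widest of all arms (22944 and 18146 bp), and the covered share without them was not worked out.

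Along the X, the number of peaks changed several-fold from one Mb to another, and the weak peaks changed more than the strong. The 22 complete windows of 1 Mb held 44 to 220 peaks, with a median of 113. Weak peaks ran from 7 to 124 per window and strong ones from 3 to 21. Across the windows, the variance over the mean was 16.7 for weak and 2.06 for strong peaks. Peaks placed independently would give a value of 1. Where peaks cluster, this measure grows with the count per window, so the 2 values cannot be compared directly. The median count was 56.5 for weak and 12.5 for strong peaks. On the long autosomal arms the measure was 11.9 (2R) to 30.7 (3L) for weak and 2.19 (3L) to 3.05 (2L) for strong peaks. For all peaks the variance over the mean was 19.8 on X, against 20.3 on 3R to 53.8 on 2L. Weak and strong counts went together only loosely over the 22 windows of X (Pearson's r = 0.33, Spearman's rho = 0.28). On the long autosomal arms r ran from 0.33 on 2L to 0.61 on 2R, and rho from 0.27 on 2L to 0.58 on 2R. The points of that relation share 1 list and 1 score scale.

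The richest window was the one from 19 to 20 Mb, with 220 peaks, of which 21 were strong and 124 weak, and 165 kb covered. Among the 116 complete windows of the long arms it had rank 10 by number of peaks. It also holds the highest-scoring peak of X. The window from 6 to 7 Mb followed with 197 peaks (18 strong, 111 weak), and that from 15 to 16 Mb with 179 (13 strong, 107 weak). All 3 had median scores of 13.33 to 14.795, under the X median.

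The poorest window by number of peaks was one of the strongest by score. From 3 to 4 Mb there were 44 peaks, of which 18 were strong and 7 weak. Strong peaks made up 40.9% of it, which gave it rank 3 among the 116 windows, and it had rank 3 by its median score of 71.16 as well. Its median width was 764 bp, the highest of the complete X windows. The other poor windows had few peaks of any class. The first Mb held 53 peaks with 4 strong and 21 weak, and the window from 21 to 22 Mb, the last complete one on the centromere side, held 54 with 3 strong and 27 weak. After it, 6 more peaks lay up to the end of the last one at 22352259.

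The windows from 1 to 4 Mb, singled out after their values were seen, form the stretch with the highest share of strong peaks on X. From 1 to 2 Mb, 19 of 72 peaks were strong (26.4%), and from 2 to 3 Mb, 19 of 87 (21.8%). The next highest share was 17.7%, from 12 to 13 Mb. Split into 4 segments of equal length, a division made after the windows were seen, X had 66.7 peaks per Mb in the segment next to the telomere. The others had 147, 119 and 115 in order along the arm. Weak peaks stood at 27.4 per Mb in the first segment and at 59.1 to 79.6 in the rest, while strong peaks stood at 12.3 in the first and at 10.7 to 14.3 in the rest. Among strong peaks the first segment was therefore inside the range of the others, and among weak ones far below it. Such a contrast was not particular to X. Cut the same way, 3L had 12.7 and 10.9 weak peaks per Mb in its middle segments and 74.4 and 64.7 in the outer ones. Its strong peaks stood at 9.13 to 11.7 per Mb. Weak peaks stood at 25.4 to 64.2 per Mb on 2L, 52.4 to 104 on 2R and 56.6 to 81.7 on 3R. Strong peaks stood at 7.31 to 11.5, 10.0 to 19.3 and 9.03 to 14.2 on these arms. On 2R and on 3R both classes were highest in the same segment and lowest in the last. On 2L strong peaks were lowest in the last segment, where weak ones were highest.

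The share of peaks off the ladder also changed along the X, from 4.17% (1 to 2 Mb) to 42.5% (10 to 11 Mb). It was 6.82% from 3 to 4 Mb and 7.50% from 4 to 5 Mb, but 33.3% from 2 to 3 Mb. In the 3 richest windows it was 19.5%, 20.8% and 36.9%. Over the 22 windows the number of weak peaks and this share had a Pearson's r of 0.22 and a Spearman's rho of 0.25. On the long autosomal arms r ran from 0.23 on 3R to 0.81 on 2L, and rho from 0.22 on 2R to 0.90 on 3L. The part of the local background in the number of weak peaks was not tested. The plot of successive windows sets the 3 measures above each other.

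**Figure D2:**
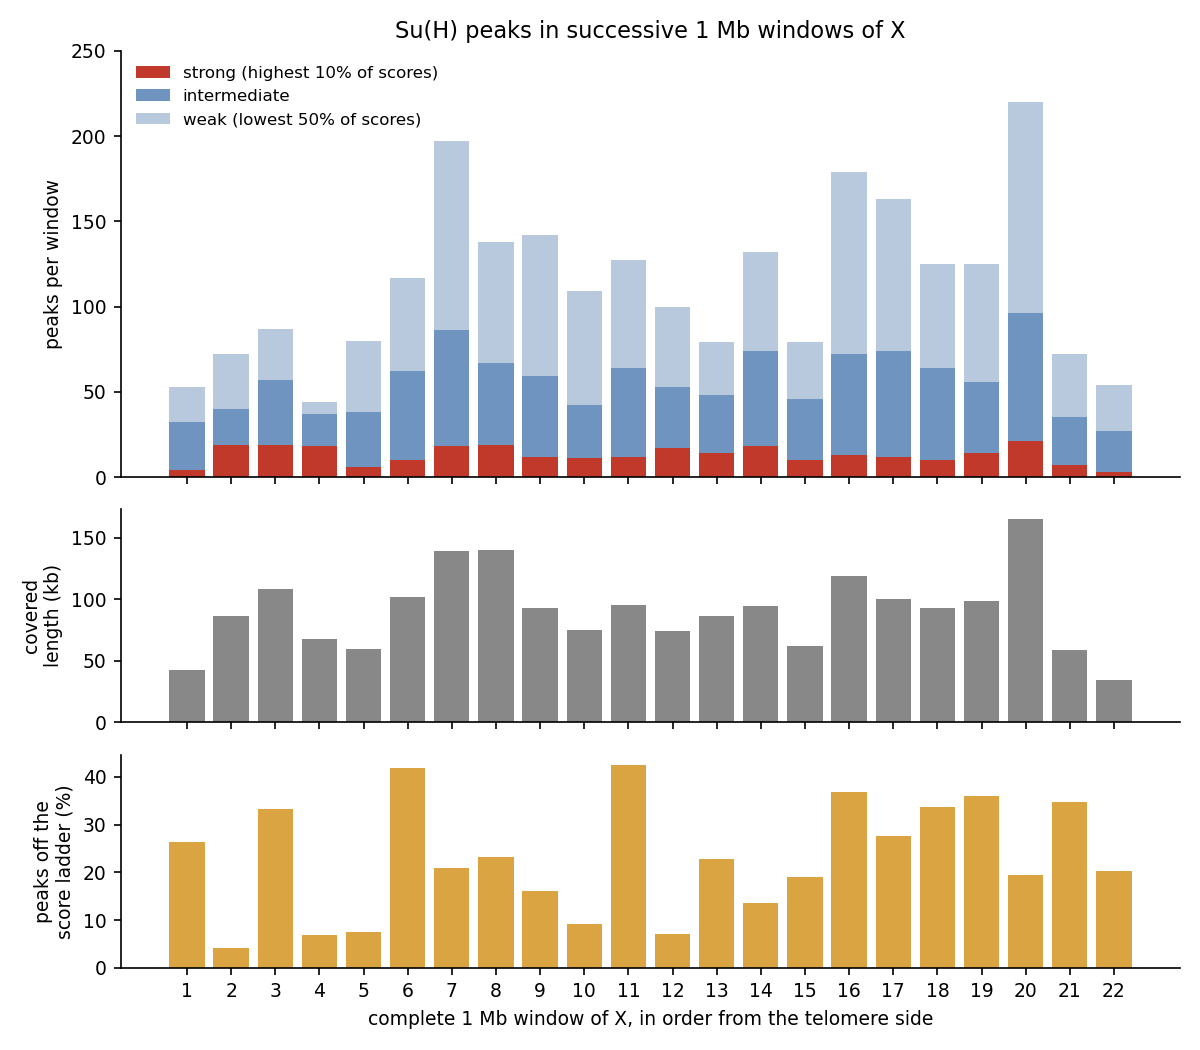
The 22 complete 1 Mb windows of X in order from the telomere side (window 1 is the first Mb), with the number of strong, intermediate and weak peaks (top), the covered length in kb (middle) and the share of peaks off the score ladder in percent (bottom). Window 4 holds 18 strong and 7 weak peaks, window 20 holds 21 strong and 124 weak, and the windows near both ends hold the fewest kb of covered sequence (43.0 and 34.3).

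At 100 kb, X had 223 complete windows with a median of 8 peaks, against 5 on 2L and 3L and 12 on 2R. A strong peak lay in 138 of them, a count given here for X only. The 22 richest windows, the highest 10%, held 31.9% of the peaks in complete windows, inside the autosomal range of 28.1% to 41.3%. The window X:19500001-19600000 had 54 peaks, 5 of them strong, and 42.8 kb covered. It led X by both measures, with rank 4 by peaks and rank 12 by covered length among the 1186 complete windows of the long arms. Next by number were X:15600001-15700000 with 46 peaks, X:6100001-6200000 with 45, and X:10600001-10700000 and X:19100001-19200000 with 42 each. Only 1 of the 46 peaks in the first of these was strong, and 2 of the 45 in the second.

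By covered length the order was different. After the window at 19.5 Mb came X:10600001-10700000 with 38.3 kb and 6 strong peaks, of whose 42 peaks 73.8% were off the ladder. Then came X:2000001-2100000 with 32.7 kb in 29 peaks and X:7900001-8000000 with 31.7 kb in 28 peaks, each with 5 strong ones. The fifth, X:17700001-17800000, had 31.4 kb in 34 peaks, of which 3 were strong and 76.5% were off the ladder. Of these 5 windows, 2 were also among the 5 with most peaks.

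Large parts of the X had no peak. Stretches of 100 kb or more without a peak numbered 44 and took up 33.4% of the length of X. On the long autosomal arms this share ran from 22.0% on 2R to 37.4% on 2L. Stretches of 50 kb or more numbered 104 and took up 52.7%, against 38.8% to 58.7%. Of the complete 100 kb windows, 33 (14.8%) held no peak midpoint, inside the range of 8.99% on 3R to 17.0% on 2L, and 1 of the 33 was touched by the edge of a peak.

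The longest peak-free stretch, X:9588354-10032342, ran for 444 kb and was the second longest of all arms. It took up the last 412 kb of the window from 9 to 10 Mb, whose 109 peaks all lay in the 588 kb before it. The peak at its telomere side was strong, with a score of 116.31, and the one at its other side had 37.4. The only run of 4 100 kb windows without a midpoint on X lies inside it. Next were a pair close to the centromere, X:20533168-20881748 with 349 kb and X:21533997-21878970 with 345 kb, with ranks 6 and 7 over all arms. The Mb windows that hold them had 72 and 54 peaks.

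The fourth, X:2684721-2953771, was 269 kb long and followed a strong peak with a score of 231.86. The fifth, X:12098106-12357944, was 260 kb long and followed one with 248.02. The remaining 5 of the 10 longest ran from 205 to 233 kb. They were X:14314985-14547664, X:4981041-5211963, X:7221511-7431134, X:14982032-15189580 and X:19811103-20016263. Most of the last of these lies in the richest Mb of the arm, and X:7221511-7431134 ends 151 kb before the widest peak of all arms. The 44 stretches of 100 kb or more were bordered by 85 peaks, 3 of which had such a stretch on both sides. Of the 85, 21 (24.7%) were strong, where 11.6% of all X peaks and 10.0% of all peaks on the arms were. Their median score was 29.28, against 15.76 over X. Bordering peaks are given for X only, so they cannot be called particular to it.

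**Figure D3:**
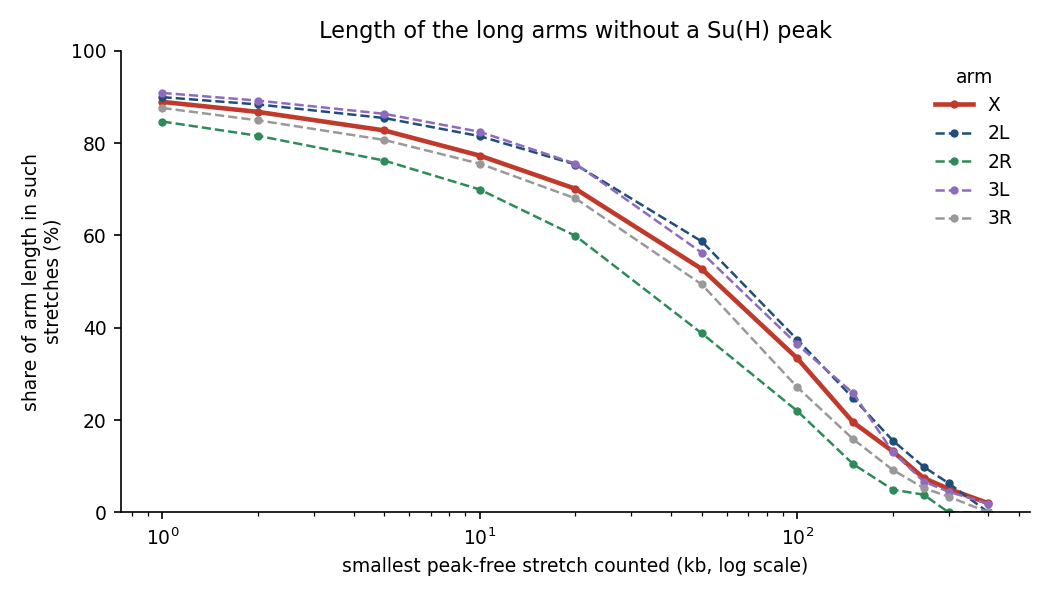
Share of arm length (percent) that lies in peak-free stretches of at least the length on the x axis (kb, log scale), for X (red, solid) and the 4 long autosomal arms (dashed). The X curve runs between those of 2R and of 2L and 3L up to 150 kb, with 52.7% at 50 kb and 33.4% at 100 kb.

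Of the 10 highest and the 10 widest X peaks, 2 were the same, so that 18 regions were named. Each list stood high by the other measure among the 2500 X peaks. The 10 highest had width ranks of 1 to 84, and the 10 widest had score ranks of 6 to 90. X held 16 of the 100 highest and 17 of the 100 widest peaks of the arms, close to its 18.0% of all peaks. Of the 10 highest, 8 lay on the ladder, as did 6 of the 10 widest, where 76.0% of all X peaks did. Over the 6 arms, 31.7% of peaks lay off it. The highest score on X was the lowest of the 5 long-arm maxima, which on the autosomal arms ran from 888.11 on 3L to 1270.81 on 3R.

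The highest-scoring X peak, X:19046657-19050710, had a score of 855.06, a fold over background of 8.18 and a width of 4054 bp. It had 18 other peaks within 20 kb, none of them strong, and its joined group held 10. The second, X:13533400-13536663, had a score of 785.55 (7.79-fold) in 3264 bp. The third, X:15703707-15709221, had 775.76 (7.73-fold) in 5515 bp with 23 peaks within 20 kb. The fourth, X:5810581-5813986, and the fifth, X:18297612-18300981, had 723.82 and 716.86. The fifth stood more alone than the others, with 3 other peaks within 20 kb and the nearest 2563 bp away.

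The sixth, X:2184736-2202881 (692.62), and the tenth, X:7582038-7604981 (664.37), are the 2 that were also among the widest. Between them came X:7821464-7825662 (688.34), X:19575054-19579267 (685.76) and X:8313437-8317077 (665.26), of 3641 to 4214 bp. The peak at 7.82 Mb had 27 others within 20 kb, the most of the 10, and 1 of them was strong. Of the 10 highest, 1, the one at 2.18 Mb, lay in the segment next to the telomere. That segment held 373 of the 2500 X peaks and 69 of the 289 strong ones.

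The 2 widest peaks of all arms lay on X. The first, X:7582038-7604981, covered 22944 bp, and the second, X:2184736-2202881, covered 18146 bp, where the widest peak off X had 14124 bp. Both were off the ladder, so that 7.08 and 7.25 are upper bounds of their folds over a higher background of their own. The widest had 11 other peaks within 20 kb and none was strong. Its nearest strong peaks lay 60.2 kb away on the telomere side and 178 kb away on the other. The second widest had strong peaks nearer, one of 1566 bp with a score of 637.35 at 8.49 kb on the centromere side and one of 4214 bp with 593.27 at 33.4 kb on the other.

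The next, X:12553467-12565161, covered 11695 bp at a lower score of 399.37 and lay on the ladder with a fold of 5.37. The fourth, X:20935358-20945061, covered 9704 bp with a score of 361.64. It begins 53.6 kb after the end of the peak-free stretch of 349 kb. The fifth, X:5792366-5800182, covered 7817 bp and lay 10.4 kb from the peak with a score of 723.82. The sixth, X:1510298-1517837, covered 7540 bp with a score of 365.48 and no other peak within 20 kb. Its nearest neighbour was 102 kb away, and no other named X peak stood so far from the rest.

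The last 4 of the 10 widest were 6441 to 7469 bp wide. X:3570381-3576821 and X:3584382-3591850 lay 7.56 kb apart, in the window from 3 to 4 Mb, and each had 3 strong peaks within 20 kb. X:8302471-8308946, with a score of 641.55, lay 4.49 kb from the peak with a score of 665.26. X:7948834-7955813 had a joined group of 9 peaks and a score of 554.15. The plot of neighbourhoods shows the 3 widest peaks and the highest with the peaks around them.

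**Figure D4:**
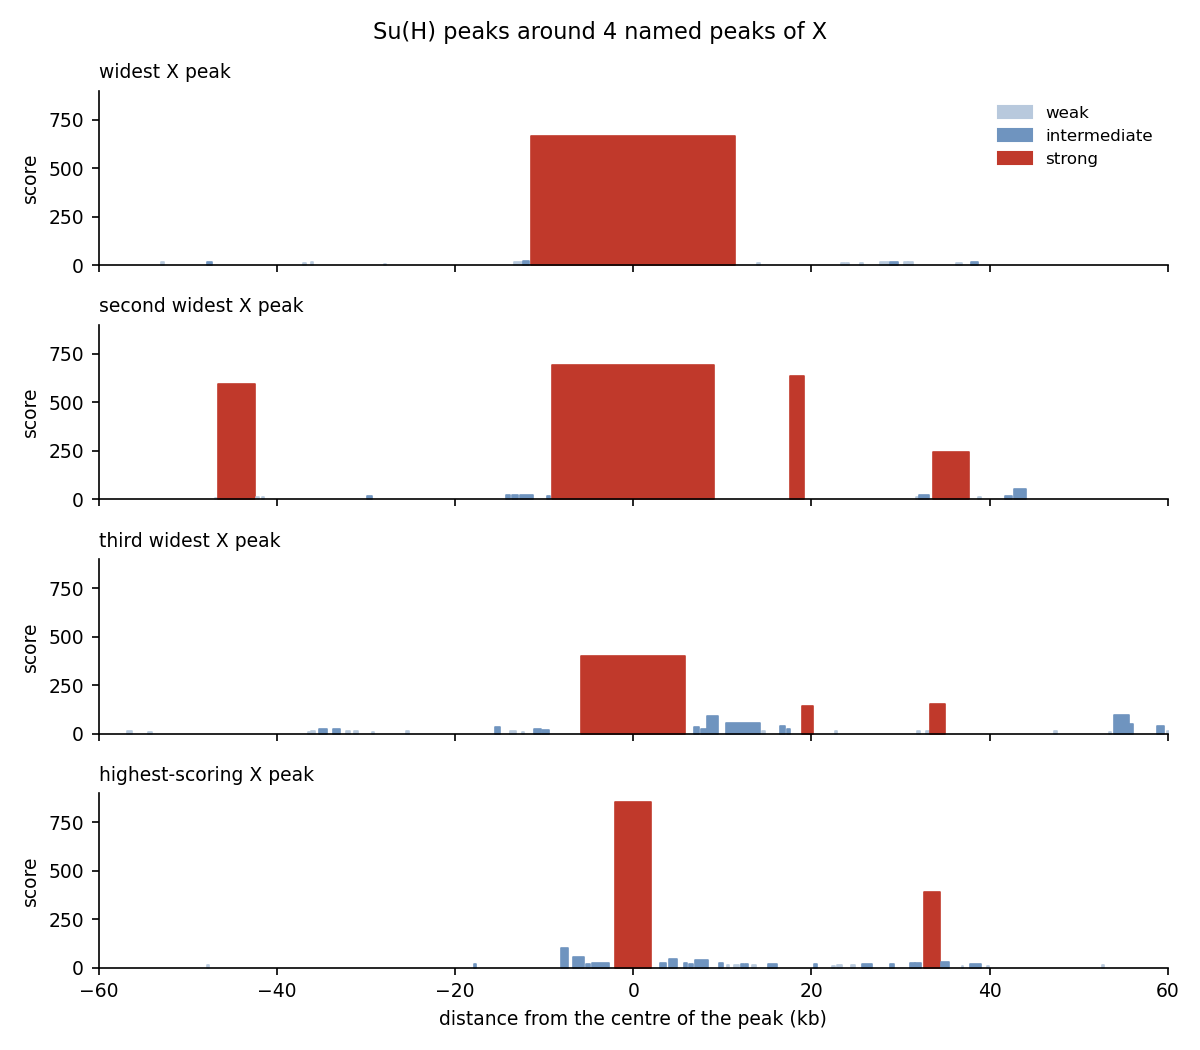
Peaks within 60 kb of the centres of the 3 widest X peaks and of the highest-scoring one, drawn from start to end (x axis, kb from the centre) at the height of the single score of each peak, which is not a signal profile. The widest has no other strong peak in its 120 kb, the second widest has 3 others, the third widest 2 and the highest 1.

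By share of its peaks, X lay just above the long autosomal arms for peaks of 3 kb or more and just below them for peaks of 5 kb or more, and in both classes the interval reached into their range. Peaks of 3 kb or more numbered 102, or 4.08% of X peaks (exact 95% interval 3.34% to 4.93%), where 3.44% of all peaks on the arms were so wide. The long autosomal arms had 3.02% to 3.46%. Peaks of 5 kb or more numbered 18 on X, or 0.720% (0.427% to 1.14%), where the share over the arms was 0.891%. The long autosomal arms had 0.748% to 1.10%. Per Mb, the ratio of X to the 4 arms together was 1.18 (0.937 to 1.47) for the first class and 0.733 (0.419 to 1.22) for the second.

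Width rose with score on X much as on the other arms. Across the 2500 peaks, the logarithms of score and width had a Pearson's r of 0.81, and score and width a Spearman's rho of 0.76. On the long autosomal arms these were 0.79 to 0.81 and 0.74 to 0.76. The points share 1 caller, which set both the score and the limits of each peak, and its part in this relation was not tested. A wide region with a low score, chosen after its values were seen, was X:18533019-18539055. It covered 6037 bp, rank 12 by width on X, with a score of 42.88 and a fold of 2.13. Of the 124 peaks of 5 kb or more on the arms, 4 were not strong, and this was the only one on X.

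Narrow strong peaks, also picked out after their values were seen, were the other exception. Of the 289 strong X peaks, 28 (9.69%) were under 1 kb wide, a share given here for X only. The highest of these, X:3266723-3267488, had a score of 390.63 and a fold of 5.31 in 766 bp, with 1 other peak within 20 kb. It was followed by X:13884311-13885282 (387.73, 972 bp) and X:13880239-13881104 (377.63, 866 bp), which have each other and 2 more strong peaks within 20 kb. All 3 lay on the ladder, as did 76.0% of all X peaks.

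**Figure D5:**
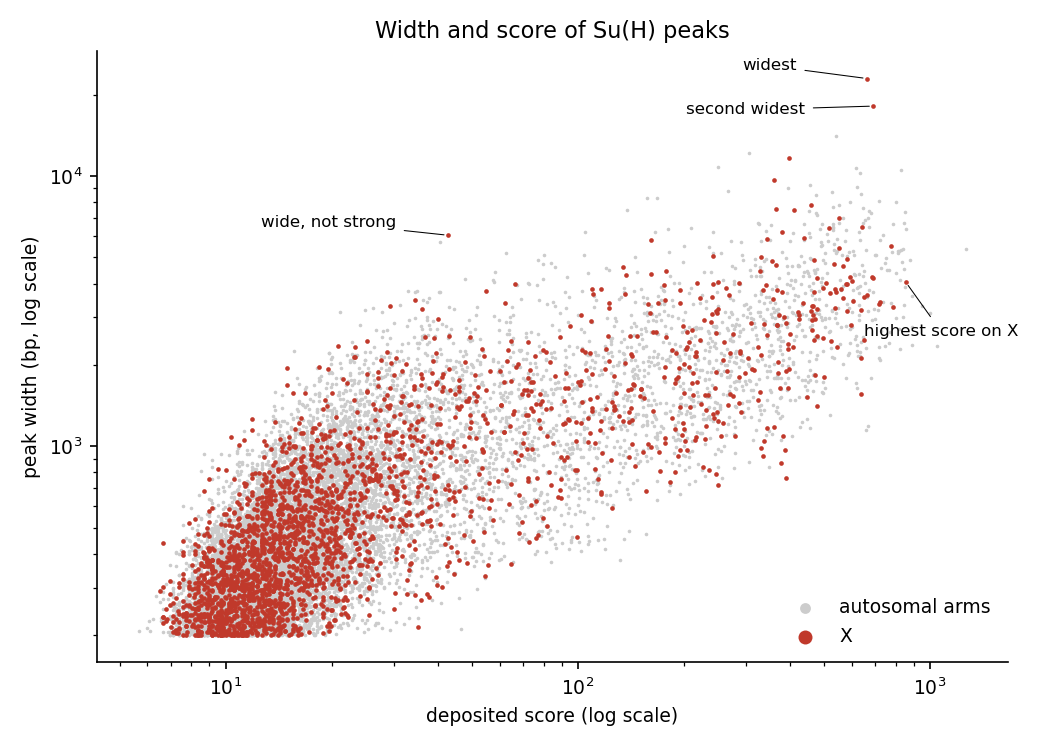
Width (bp, log scale) against deposited score (log scale) of every peak on the 6 arms, with X in red and the autosomal arms in grey. The 2 widest X peaks (22944 and 18146 bp) stand above all others, the highest-scoring X peak (855.06) is 4054 bp wide, and the wide peak that is not strong has a score of 42.88.

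Many X peaks formed groups. Joining peaks under 1 kb apart gave 1140 regions, or 51.0 per Mb, against 40.4 on 2L to 65.6 on 2R. Of these, 604 (53.0%) held 1 peak, 230 held 2 and 128 held 3, and 75.8% of X peaks shared a region with another. Regions of 5 or more peaks numbered 119, or 5.32 per Mb, inside the autosomal range of 3.42 to 8.09. The largest on X held 14 peaks, where the largest of each long autosomal arm held 18 to 24. The 256 regions with a strong peak held a mean of 3.03 peaks and the 884 without one a mean of 1.95. Their median lengths were 3578.5 and 758 bp. A longer region has more room for peaks and more chances of a strong one, so the 2 kinds are described only.

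The region with most peaks, X:14959606-14978680, held 14 in 19075 bp, of which 2 were strong. It ends shortly before the peak-free stretch that begins at 14982032. The longest, X:2027863-2053067, held 13 peaks in 25205 bp with 89.1% of its length covered, 3 strong peaks and a highest score of 468.32. X:17763011-17781438 held 12 peaks in 18428 bp, 3 of them strong. In contrast, X:5581149-5595842 and X:9084867-9096069 held 13 peaks each and no strong one, with highest scores of 60.7 and 27.37. Ranks 2 and 4 by length were the 2 widest single peaks with 2 and 1 narrow neighbours, in 24889 and 18695 bp. Groups of many peaks on X were thus of both kinds, with and without a strong peak.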

How the data were processed

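The authors deposited 1 peak list for the whole series, with a start, an end and a score per peak. Coordinates are FlyBase release 5 and the caller is MACS, per the file headers. The submitters' processing notes name BWA, MACS2, the build BDGP5 and CASAVA (versions 1.7.0.2 and 1.7.0.3) with no role for any of them. Neither the calling threshold nor the libraries that entered are known here. No column of the file was left unmapped to a measure.

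All 2500 peaks of X were used with no filter. Arm length is the end of the last peak. Windows of 1 Mb and 100 kb start at position 1 and count midpoints, and gaps under 1 kb were joined. The background of the score was fitted on all peaks as the Poisson mean that put most scores within 0.0075 of −log10 of an upper tail for a whole count. The steps were checked on simulated data. Intervals are exact 95% (Poisson for rates, Clopper-Pearson for shares and for ratios of rates, order statistics for medians). The regions named are the 10 highest and widest peaks, the 10 longest stretches, the 3 richest and poorest 1 Mb windows, and the 5 leading 100 kb windows and joined groups. Other regions are said to be chosen later. The members, lists and score scale were chosen with earlier results of these data known. The tools were SciPy 1.17.1, NumPy 2.4.6 and pandas 2.3.3 under Python 3.11.15, with matplotlib 3.10.9. The gene table at hand is of release 6, so no gene or sequence was matched to a position.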

Additional observations from a re-analysis of the deposited data

How the results depend on the processing

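Over 11 results, 35 alternatives were run, of which 19 stayed within the interval of the value (for counts, within 1.5 times) and 16 moved. With the upper 50% of the score, a setting that removes peaks by construction, X had 55.2 peaks per Mb, a median width of 813 bp, a median spacing of 3882 bp, and medians of 56.5 peaks per 1 Mb window and 4 per 100 kb window. With peaks under 1 kb apart joined, which merges neighbours by construction, these were 51.0 per Mb, 1143.5 bp, 6699 bp, 49 and 4, and the ratio of X to the long autosomal arms was 1.00. Joining under 2 kb gave a spacing of 12849.75 bp, and gaps from end to start gave 795 bp. Without the outer 1 Mb at each end, X had 119 peaks per Mb and the ratio was 1.02, so whether X lies above or below the autosomal arms depends on its ends and on joining. With the highest 5% of scores as strong, the share on X was 5.56% (4.90% on the long autosomal arms). The longest stretch, the number of stretches of 100 kb or more (44 to 49) and of 100 kb windows without a peak (31 to 40) stayed within 1.5 times under every alternative run for them. No paired analysis was possible because peaks carry 1 score for the series and none by library, and for this reason no replicate could be left out. The depth of the libraries is unknown, so a stretch without a peak is one in which none was called at this depth.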
